A study of Mus musculus with 11 samples.

Results

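The genes described here encode components of the complement cascade and one of its membrane regulators. They were chosen by name as the rows C1ra, C2, C4a, Mbl2, Masp1, Masp2, C3, Cfb, Cfd and Cd55 of the mouse Inflammation panel, with the chains of C1q left aside, and all 10 were found among the 248 genes measured. The rule names the genes and uses no measured value.

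Corneas of female C57BL/6 mice were taken on day 5 of desiccating stress (DS5), a model of dry eye in which mice live in a dry draft and drink scopolamine, which blocks tear secretion. During DS the mice received daily eye drops of vehicle (3 samples), of pan, an agonist of all Trk neurotrophin receptors, at 10 μM (4 samples), or of C1, an agonist of TrkC, at 10 μM (4 samples). Every sample came from a stressed eye, so no level below can be set against an unstressed cornea. The labels name the material as cornea and as corneal epithelium. One age label gave 3 months for every sample. The other put every vehicle sample and the first 3 pan replicates at 2 to 3 months, but every C1 sample and pan replicate 4 at 22 to 24 months. The study's methods describe young mice, which goes against the older group of this second label, and which age holds is not settled here. If the second label holds, C1 and vehicle shared no age, and treatment and age cannot be told apart between them. The compound C1 is not the complement component of that name, and it is called the agonist C1 below where confusion could arise.

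Complement is a chain of plasma and tissue proteins that tags surfaces and recruits inflammatory cells. The classical pathway starts with C1q, C1r and C1s, which cleave C4 and C2. The lectin pathway starts with mannose-binding lectin and its proteases, the MASPs, and meets the classical pathway at the same C4 and C2. The alternative pathway uses factor B and factor D to amplify deposition of C3, the protein on which all routes converge. CD55, also called decay-accelerating factor, sits on cell membranes and takes apart the enzymes that cleave C3. Most circulating complement is made by the liver, while epithelial cells and macrophages at the ocular surface can make some of it locally, and corneal and conjunctival epithelium carries CD55.

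The nCounter assay counts hybridised probes without amplification. The deposited values are log2 counts scaled by the authors to housekeeping genes, and they are given here as normalized counts. In each sample all values were whole multiples of a single step within a tolerance of 0.01, so that the step was taken as the worth of 1 probe count. A vehicle sample held between 91955 and 133098 counts over the panel, a pan sample between 64156 and 646446, and a C1 sample between 165828 and 525997. Pan replicate 4 held the highest total, and each of the other pan samples held only 1 count of Mbl2. The total also split along the second age label. Samples labelled 2 to 3 months held 64156 to 133098 counts, and those labelled 22 to 24 months 165828 to 646446. Between C1 and vehicle neither this label nor the depth can be told apart from the treatment. A count of 0 would have allowed up to 3 counts, which corresponds to 4.93 to 6.91 normalized counts in the vehicle samples, 0.944 to 9.74 in the pan samples and 1.30 to 4.13 in the C1 samples. As a second measure of background, 14 panel genes of other tissues and of lymphocyte and mast cell cytokines averaged 4.35 to 10.7 normalized counts per sample. Epithelial and stromal markers are not among the genes measured, so the labelled tissue could not be checked against them.

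C3 and Cd55 exceeded the highest of these 14 reference genes in all 11 samples. C1ra, C2 and C4a did so in 10 samples each, and Cfb and Masp1 in 8 samples each. Masp2 did so in 2 samples, and Cfd and Mbl2 in 0 samples. The values of Masp2, Cfd and Mbl2 were therefore in the range of the reference genes in most corneas, and their differences between groups are differences at that level. Probes bind with different efficiency, so levels are compared between samples and not between genes.

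**Figure D1:**
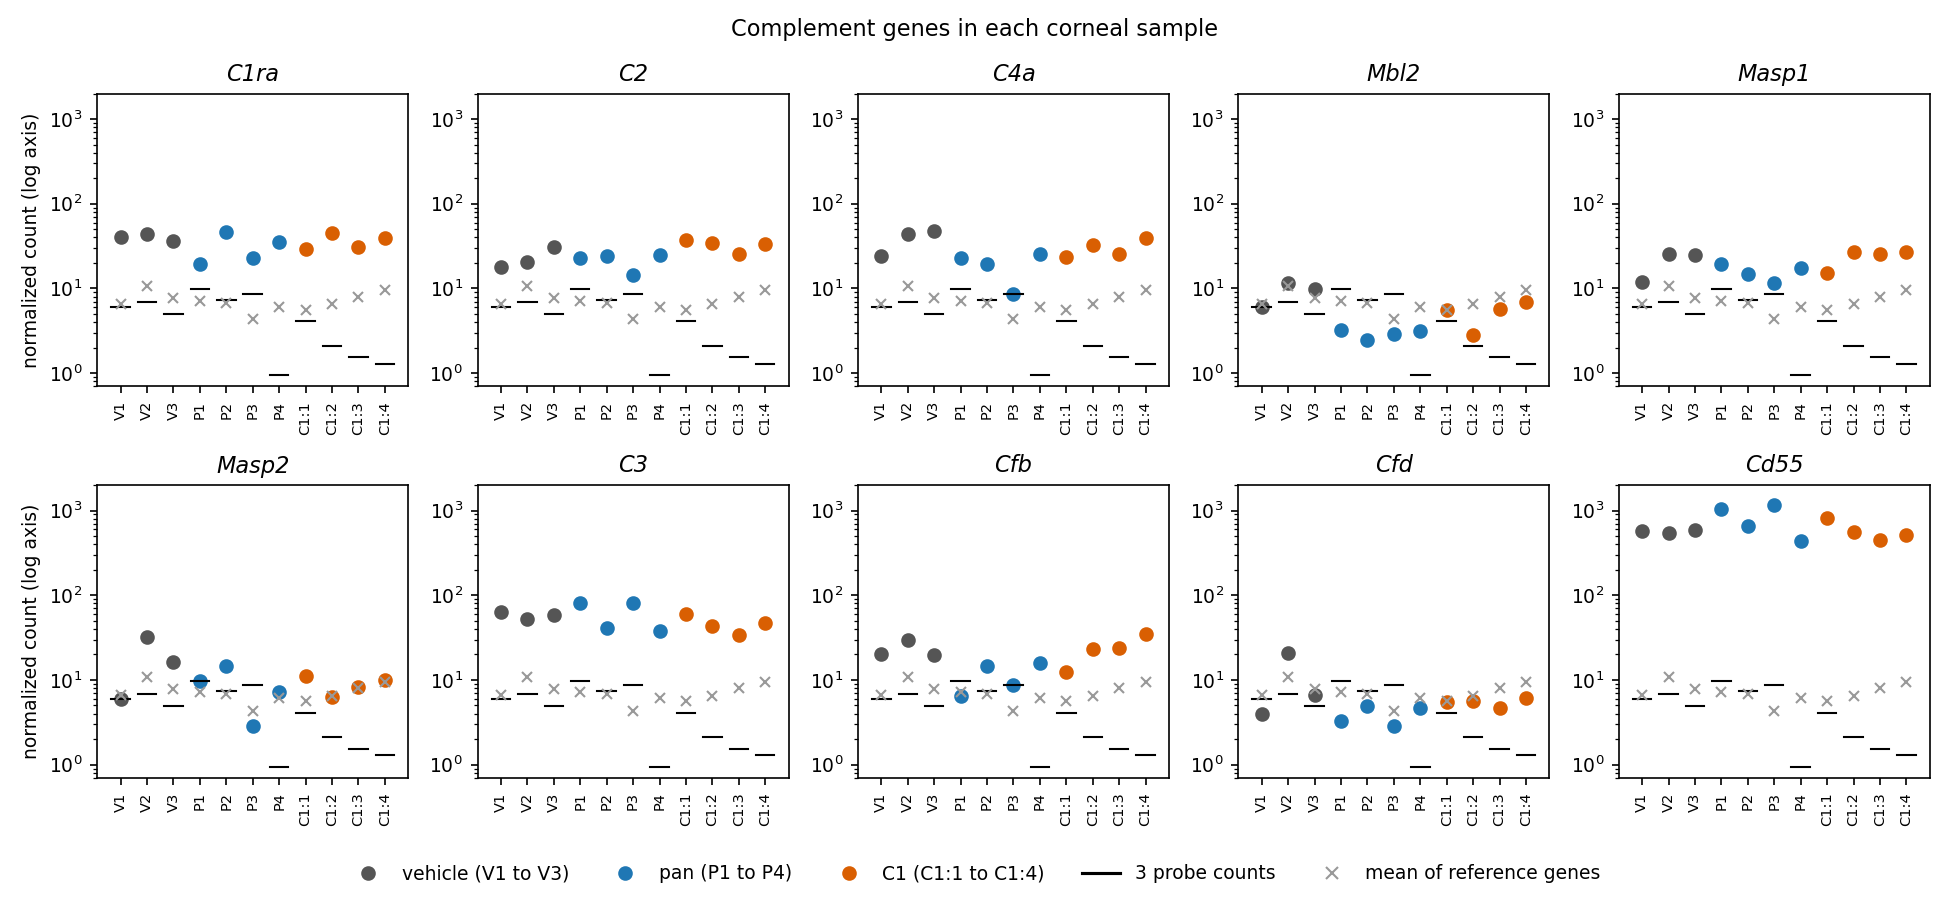
Normalized counts (log axis) of the 10 complement genes in each of the 11 corneal samples, with vehicle samples in grey (V1 to V3), pan samples in blue (P1 to P4) and C1 samples in orange (C1:1 to C1:4). The black bar is the value of 3 probe counts in that sample and the grey cross the mean of the 14 reference genes: C3 and Cd55 lie above both in every sample, and Mbl2 lies below the bar in P1 to P3.

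The promoter sequences of C3 and Cd55 are shown because these genes were above the reference genes in every sample and their ratio is compared between the groups below. They are the 250 bases upstream of the annotated start in RefSeq (GRCm38.p6), read 5′ to 3′ along the gene, at chr17:57228137-57228386 on the minus strand for C3 and at chr1:130462745-130462994 on the minus strand for Cd55. Capitals mark matches to the motifs searched.
C3: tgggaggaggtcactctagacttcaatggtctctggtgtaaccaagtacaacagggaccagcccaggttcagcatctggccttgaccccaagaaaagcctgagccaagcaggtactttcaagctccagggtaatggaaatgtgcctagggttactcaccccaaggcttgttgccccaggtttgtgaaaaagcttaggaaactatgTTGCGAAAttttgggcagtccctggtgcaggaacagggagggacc
Cd55: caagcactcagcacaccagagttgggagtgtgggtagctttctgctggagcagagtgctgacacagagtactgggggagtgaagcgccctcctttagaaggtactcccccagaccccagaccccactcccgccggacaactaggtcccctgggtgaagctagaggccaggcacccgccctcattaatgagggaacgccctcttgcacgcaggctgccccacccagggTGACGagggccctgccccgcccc
The motifs were the C/EBP site TTGCNNAA, the interferon-gamma activated site TTCNNNGAA, the core TGACG of the cyclic AMP response element, and the NF-kappaB site, all searched on both strands, and no matches overlapped. The C3 window held 1 C/EBP match, TTGCGAAA, starting at -45 from the start of the gene. The Cd55 window held 1 TGACG match, starting at -23. Of 32851 mouse promoters, 9.56% held the C/EBP letters, 7.02% the interferon-gamma activated site, 17.8% TGACG and 7.25% the NF-kappaB site. A promoter was found for 6 of the 10 genes, and of the others with one only Masp2 held a match, TTCCCAGAA at -53 and CGTCA at -215. A match is a run of letters and not a bound site.

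The first comparison asked what pan did to the stressed cornea. Mbl2, the recognition lectin of the lectin pathway, was lower in pan than in vehicle samples and was the 1 complement gene of 10 that passed an adjusted p of 0.05 in limma, where 2.02% of all 248 genes passed. Cfb, which encodes factor B, was lower in every pan sample than in every vehicle sample but did not pass the adjusted test. C4a, Cfb and Mbl2 were lower at an unadjusted p under 0.05 (3 of 10, beside 10.1% of the panel). The log2 fold changes of C3 and C2 were -0.045 and -0.10, and Cd55 was higher in 3 of 4 pan samples than in any vehicle sample. In all, 9 of the 10 genes had a log2 fold change below 0, against 69.8% of the whole panel. The groups did not overlap for 2 of 10 genes, Mbl2 and Cfb, both lower with pan, against 8.47% of the panel. The median log2 fold change of the 10 genes was -0.72, beside -0.20 over all genes and -0.36 over the reference genes.

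The second comparison asked the same of the agonist C1. No complement gene passed the adjusted threshold in limma (0 of 10), and across the panel 0% of genes did, while 10.5% of the panel and 0 of the 10 complement genes had an unadjusted p under 0.05. C2 was higher in 3 of 4 C1 samples than in any vehicle sample, and C3 was lower in 3 of 4 C1 samples than in any vehicle sample. The groups overlapped for all 10 genes, where 4.03% of the panel lay wholly lower and 6.05% wholly higher with C1. The median log2 fold change of the 10 genes was -0.25, beside -0.019 over all genes.

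The third comparison set the 2 compounds side by side at the same dose and day. No complement gene passed the adjusted threshold in limma (0 of 10), beside 0.403% of the panel. C2, Cfb and Mbl2 were higher with the agonist C1 than with pan at an unadjusted p under 0.05 (3 of 10, beside 13.7% of the panel). The C1 samples lay wholly above the pan samples for 1 of 10 genes, C2, against 7.66% of the panel. The median log2 fold change of C1 over pan was 0.53 for the 10 genes, 0.23 over all genes and 0.46 over the reference genes. The 2 treatments are compared with the same vehicle samples, so their differences from vehicle are not independent of each other.

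**Figure D2:**
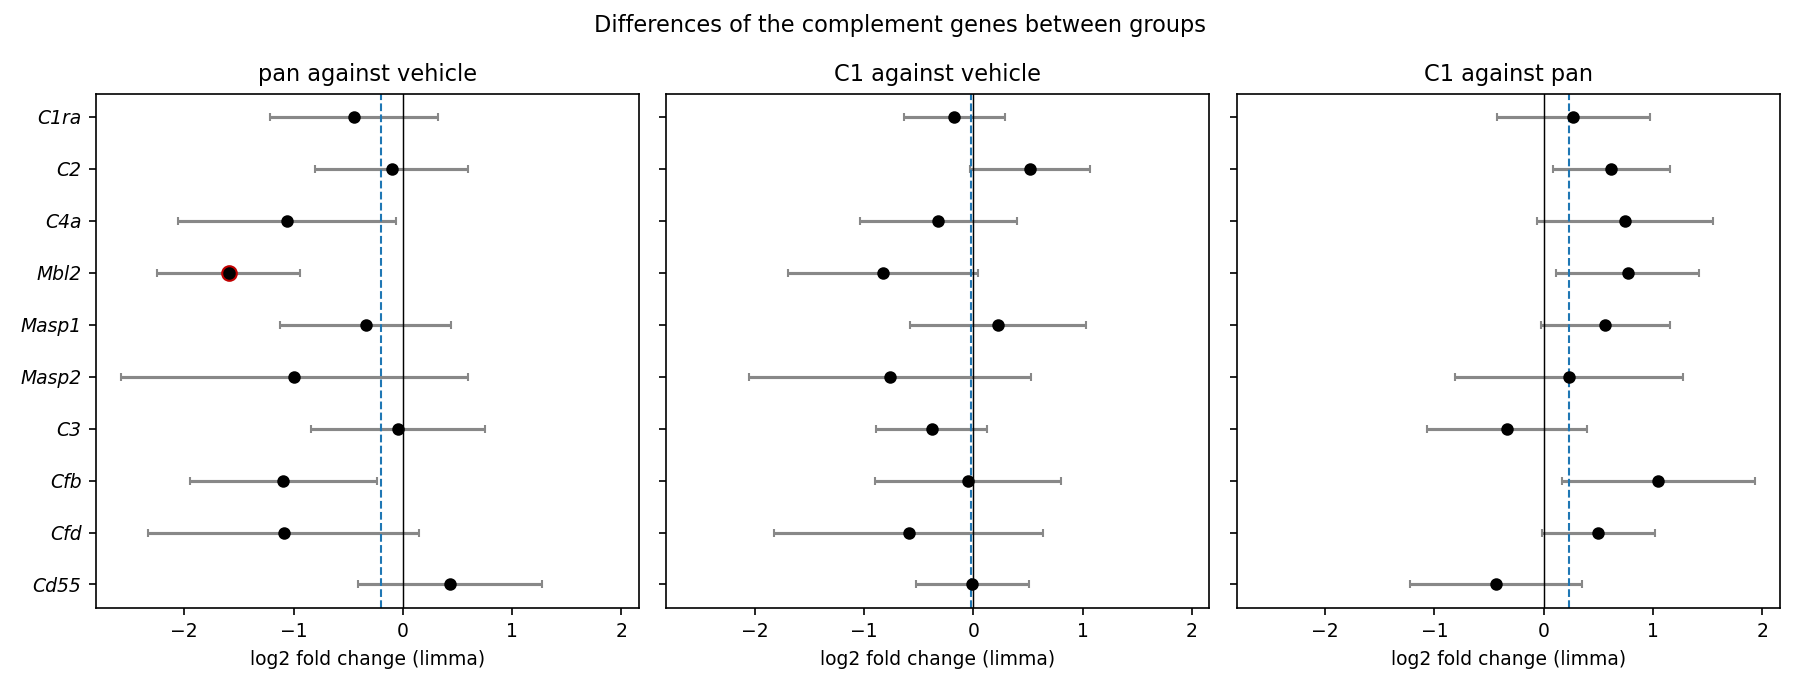
Log2 fold change (limma) of each complement gene in the 3 comparisons, with bars for the 95% confidence interval, a solid line at 0 and a dashed line at the median of all 248 genes. The red ring marks Mbl2 in pan against vehicle (-1.59), where the adjusted p passed 0.05, and for C3 and Cd55 the interval includes 0 in each comparison.

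C1ra encodes a protease of the first classical complex. The vehicle samples had 40.04, 43.8 and 36.2 normalized counts, the pan samples 19.5, 46.4, 23.2 and 35.2, and the C1 samples 28.9, 44.9, 30.4 and 39.7. Pan replicates 1, 3 and 4 were lower than every vehicle sample and pan replicate 2 was higher than every vehicle sample, so the pan group spread on both sides. The log2 fold change was -0.44 (SE 0.33, adjusted p = 0.594 in limma) for pan and -0.17 (SE 0.20, adjusted p = 0.787) for C1 against vehicle. Without pan replicate 1 the value for pan was -0.25, and without pan replicate 2 it was -0.67. Its near relative C1rb is annotated in mouse, and whether the probe reads both was not tested.

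C2 supplies the catalytic part of the enzyme that cleaves C3. It was counted at 18.02, 20.7 and 31.2 (normalized counts) with vehicle, at 22.7, 24.4, 14.5 and 24.9 with pan, and at 37.1, 34.4, 25.8 and 33.7 with C1. The lowest C1 sample was above the highest pan sample, and only vehicle replicate 3 reached into the C1 range. The order of the group means was pan (21.6 ± 4.84, SD, n = 4), vehicle (23.3 ± 6.99, n = 3) and C1 (32.7 ± 4.87, n = 4), of which pan and vehicle differed by less than their spread. C1 over pan was a log2 fold change of 0.62, with a 95% interval of 0.085 to 1.15, an unadjusted p of 0.0278 and an adjusted p of 0.276 in limma. The two-sided exact permutation p was 0.0286, the smallest that 4 against 4 samples allow. Within the age label of 22 to 24 months, where 1 pan sample remains, the difference was 0.38, given as a value with no test. Against vehicle, C2 was 0.52 higher on the log2 scale with C1 (interval -0.033 to 1.07, adjusted p = 0.452) and -0.10 with pan (adjusted p = 0.942).

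C4a is listed on the panel beside no probe for its close neighbour C4b, the gene for the C4 of the classical cascade, and RefSeq annotates C4a as a transcribed pseudogene in this mouse assembly. Which of the pair the probe counted is uncertain. Normalized counts were 24.0, 43.8 and 47.7 in the vehicle samples, 22.7, 19.5, 8.69 and 25.2 in the pan samples, and 23.4, 32.3, 25.3 and 39.7 in the C1 samples. Of the pan samples, 3 were below every vehicle sample, while pan replicate 4 overlapped vehicle replicate 1. With pan the log2 fold change was -1.06 (SE 0.43, interval -2.06 to -0.065), with an unadjusted p of 0.0395 and an adjusted p of 0.338 in limma. With C1 it was -0.32 against vehicle (adjusted p = 0.787) and 0.74 against pan (interval -0.066 to 1.55, adjusted p = 0.363). C2, Cfb and C4a lie close together in the class III region of the mouse major histocompatibility complex on chromosome 17.

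Mbl2 encodes a mannose-binding lectin that recognises sugars on microbes. In the vehicle samples it had 6.01, 11.5 and 9.87 normalized counts, in the pan samples 3.25, 2.44, 2.90 and 3.15, and in the C1 samples 5.50, 2.80, 5.68 and 6.91. Every pan sample was below every vehicle sample, and the C1 samples overlapped both. The vehicle values rested on 3, 5 and 6 probe counts and those of pan replicates 1 to 3 on 1 probe count each, so that in these pan samples the level was under what a count of 0 allows. Pan replicate 4, which was counted more deeply, held 10 probe counts. Log2 values cannot hold a count of 0, and whether a count of 1 stands for 0 was not tested. Ifng had the same pan mean and spread as Mbl2 (2.93 ± 0.359, SD, n = 4). The small spread of Mbl2 with pan is therefore that of samples at the lowest count. The reference genes averaged 6.58 to 10.7 normalized counts in the vehicle samples and 4.35 to 7.19 in the pan samples, so Mbl2 was near that mean in each vehicle sample and below it in each pan sample.

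The log2 fold change of Mbl2 with pan was -1.59 (SE 0.28, interval -2.25 to -0.94), with an adjusted p of 0.0305 in limma. The two-sided exact permutation p was 0.0571, the smallest that 3 against 4 samples allow. By counting alone, the summed 13 probe counts of the pan samples against the 14 of the vehicle samples gave a ratio of 0.338, with an exact 95% interval of 0.146 to 0.774. For pan replicates 1 to 3, with 3 counts in all, the ratio was 0.311, and its interval of 0.0573 to 1.11 included 1. The call was lost when any of the 4 pan samples or vehicle replicate 2 or 3 was left out (adjusted p 0.0647 to 0.161 in limma). After subtraction of the reference mean in each sample, with results under 1 set to 1, the log2 fold change was -0.36 (adjusted p = 0.726). This set every pan sample and vehicle replicates 1 and 2 to 1. The value therefore came from vehicle replicate 3 alone, and the call could not be kept. Against vehicle, Mbl2 with C1 was -0.83 on the log2 scale (interval -1.70 to 0.041, adjusted p = 0.452). The liver transcripts Crp, Kng1 and C9 summed to 28.0 to 43.8 normalized counts with vehicle, 11.6 to 22.0 with pan and 13.8 to 41.0 with C1. Their log2 fold changes with pan were -1.95 for C9, -0.71 for Kng1 and 0.065 for Crp, none of which passed the adjusted threshold, and the identifier given for the Crp row is that of Dmbt1 in RefSeq. Their part in the result was not tested.

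Masp1 and Masp2 encode the proteases that travel with mannose-binding lectin. Masp1 had normalized counts of 12.01, 25.4 and 24.7 in the vehicle samples, 19.5, 14.6, 11.6 and 17.3 in the pan samples, and 15.1, 26.6, 25.3 and 26.8 in the C1 samples. Vehicle replicate 1 and C1 replicate 1 were the low samples of their groups, and the other C1 samples lay beside vehicle replicates 2 and 3. Its log2 fold change was -0.34 (SE 0.34, adjusted p = 0.729 in limma) with pan and 0.22 (SE 0.34, adjusted p = 0.852) with C1. With pan it was -0.69 without vehicle replicate 1 and -0.15 without vehicle replicate 2, and with C1 these were -0.13 and 0.41.

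Masp2 had normalized counts of 6.01, 32.3 and 16.4 in the vehicle samples, 9.74, 14.6, 2.90 and 7.24 in the pan samples, and 11.01, 6.31, 8.26 and 9.94 in the C1 samples. Vehicle replicate 2 was above every treated sample, while vehicle replicate 1 was below every treated sample but pan replicate 3. Its log2 fold changes of -0.99 (SE 0.69) and -0.76 (SE 0.54) against vehicle had adjusted p-values of 0.577 and 0.688 in limma. Without vehicle replicate 2 these were -0.43 and -0.19, and without vehicle replicate 1 they were -1.64 and -1.41. Masp2 was at or under 3 probe counts in 1 vehicle and 2 pan samples.

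C3 is cleaved by every route of the cascade and its fragments coat surfaces. Counts after normalization were 64.1, 53.0 and 59.2 in the vehicle samples, 81.1, 41.5, 81.1 and 38.1 in the pan samples, and 60.5, 42.8, 33.5 and 47.1 in the C1 samples. The pan group lay on both sides of vehicle, with replicates 1 and 3 above and replicates 2 and 4 below every vehicle sample. C1 replicate 1 was within the vehicle range and the other C1 samples were below it. The group means were 58.8 ± 5.54 (SD, n = 3) for vehicle, 60.5 ± 23.9 (n = 4) for pan and 46.0 ± 11.2 (n = 4) for C1.

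The log2 fold change of C3 was -0.045 (interval -0.84 to 0.75, adjusted p = 0.945 in limma) with pan and -0.38 (interval -0.89 to 0.13, adjusted p = 0.567) with C1. These intervals do not show that C3 stayed level. Without pan replicate 4 the pan difference turned to 0.15 (adjusted p = 0.850). C3 was -0.34 on the log2 scale with C1 against pan (interval -1.07 to 0.40, adjusted p = 0.621), and 0.24 within the age label of 22 to 24 months.

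Cfb encodes factor B, which binds deposited C3 and forms the amplifying enzyme of the alternative pathway. Vehicle samples gave 20.02, 29.96 and 19.7 normalized counts of Cfb, pan samples 6.49, 14.6, 8.69 and 15.7, and C1 samples 12.4, 23.1, 23.7 and 34.99. All 4 pan samples were below the lowest vehicle sample, and the C1 samples spread around vehicle, with replicate 1 below it and replicate 4 above it. The group means were 11.4 ± 4.50 (SD, n = 4) for pan, 23.2 ± 5.82 (n = 3) for vehicle and 23.6 ± 9.24 (n = 4) for C1, of which vehicle and C1 differed by less than their spread.

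With pan the log2 fold change of Cfb was -1.09 (SE 0.37, interval -1.95 to -0.24), with an unadjusted p of 0.0183 and an adjusted p of 0.239 in limma, and the two-sided exact permutation p was 0.0571. Without pan replicate 4, that is within the age label of 2 to 3 months, it was -1.28 (adjusted p = 0.183). The 3 pan samples of the lower totals held 2, 6 and 3 probe counts of Cfb and pan replicate 4 held 50. By counting alone, pan replicate 4 over vehicle gave a ratio of 0.693 (exact interval 0.441 to 1.10) and pan replicates 1 to 3 over vehicle a ratio of 0.456 (0.209 to 0.918). With a floor of 20 normalized counts the log2 fold change was -0.19, and with the reference mean subtracted it was -1.78. With C1 the log2 fold change against vehicle was -0.045 (interval -0.90 to 0.81, adjusted p = 0.945).

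C1 against pan gave a log2 fold change of 1.05 for Cfb (SE 0.39, interval 0.16 to 1.93), with an unadjusted p of 0.0253, an adjusted p of 0.272 in limma and an exact permutation p of 0.0857. C1 replicate 1 fell within the pan range and the other C1 samples were above it. Within the age label of 22 to 24 months the difference was 0.49, with 1 pan sample and no test. With an adjusted p above the threshold, Cfb is neither shown to differ between the compounds nor shown to be alike.

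Cfd encodes factor D, the protease that activates factor B, and is known as adipsin from fat tissue. Levels of Cfd were 4.004, 20.7 and 6.58 normalized counts in the vehicle samples, 2.90 to 4.88 in the pan samples and 4.64 to 6.05 in the C1 samples. Vehicle replicate 2, with 9 probe counts, stood above all other samples, and 3 of 4 pan samples held at most 3 probe counts. The log2 fold changes against vehicle were -1.09 (SE 0.54, adjusted p = 0.460 in limma) with pan and -0.59 (SE 0.52, adjusted p = 0.755) with C1. Without vehicle replicate 2 they were -0.42 and 0.080.

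Cd55 protects host cells by speeding the decay of the C3-cleaving enzymes. Its normalized counts were 577, 549 and 594 in the vehicle samples, 1055, 664, 1171 and 434 in the pan samples, and 819.9, 553, 449.9 and 515 in the C1 samples. Pan replicates 1 to 3 were above every vehicle sample and pan replicate 4 was below every vehicle sample. The C1 samples lay on both sides, with replicate 1 above and replicates 3 and 4 below vehicle. The group means were 573 ± 22.8 (SD, n = 3) for vehicle, 584 ± 163 (n = 4) for C1 and 831 ± 342 (n = 4) for pan. Vehicle and C1 differed by less than the spread within C1, and C1 and pan by less than the spread within pan but more than that within C1.

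The log2 fold change of Cd55 with pan was 0.43 (SE 0.36, interval -0.41 to 1.27, adjusted p = 0.640 in limma). Without pan replicate 4, that is within the age label of 2 to 3 months, it was 0.71 (adjusted p = 0.288), and without pan replicate 3 it was 0.23. With C1 it was -0.0083 (SE 0.22, interval -0.52 to 0.51, adjusted p = 0.979). A covariate for log2 total moved it to 0.59, and under this covariate C3 with C1 also turned, from -0.38 to 0.057. C1 against pan gave -0.44 (interval -1.23 to 0.35, adjusted p = 0.585), which turned to 0.39 within the age label of 22 to 24 months. Cd55b, a near relative of Cd55, is annotated in mouse, and whether the probe reads both was not tested.

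In pan replicates 1 and 3 C3 and Cd55 were both above every vehicle sample, and in pan replicate 4 both were below every vehicle sample. Over the 11 samples log2 C3 and log2 Cd55 correlated with Pearson r = 0.85 (permutation p = 7.6e-04, adjusted over 45 pairs 0.0238) and Spearman rho = 0.78 (permutation p = 0.00644, adjusted 0.0710). They were the one pair of complement genes here with at least 10 probe counts in every sample. Without the 2 samples farthest from the median of C3, pan replicate 1 and C1 replicate 3, r was 0.77, and with each group centred on its mean r was 0.94. Both genes also ran against the total count, with r of -0.76 for C3 and -0.75 for Cd55 with log2 total count. With the log2 total removed from both, r was 0.65 (adjusted p = 0.0797, permutation test). The adjusted permutation p was 0.114 without pan replicate 3 and 0.0504 without pan replicate 4. Other pairs, with fewer counts, also passed the adjusted threshold. Among them Cd55 with Cfb ran the other way, with r = -0.83 (adjusted permutation p = 0.0321), and -0.52 without pan replicates 1 and 3.

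Likeness to Cd55 was not particular to C3. Among 121 other genes with at least 10 counts in every sample C3 ranked 14, where the median r with Cd55 was -0.063. The leading genes were Cdc42 (r = 0.98), Rela (r = 0.97) and Gnb1 (r = 0.97), as a description over the same 11 samples. All of these genes share the scaling factor and the depth of each sample. In a bulk cornea, fewer cells of a type and less RNA per cell cannot be told apart.

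A ratio of a pair of genes within a sample does not depend on the scaling factor, so C3 was set against Cd55. The ratio of C3 to Cd55 probe counts was 11.1%, 9.66% and 9.97% in the vehicle samples, 7.69%, 6.25%, 6.93% and 8.78% in the pan samples, and 7.38%, 7.73%, 7.45% and 9.14% in the C1 samples. Every treated sample was below every vehicle sample, and pan and C1 overlapped. On the log2 scale the difference was -0.48 for pan and -0.37 for C1, each with a two-sided exact permutation p of 0.0571, the smallest this design allows, and 0.171 after adjustment over 6 ratio tests. The counting error of a single log2 ratio was 0.137 to 0.361 (SE), which is larger than the gap between the highest treated and the lowest vehicle sample. Both differences use the same 3 vehicle samples.

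As a background for this ratio, 6.07% of the 247 genes other than Cd55 had a ratio to Cd55 that was lower in every pan sample than in every vehicle sample, 3.24% in every C1 sample, and 1.62% in both. C1 against pan gave a difference of 0.10 on the log2 scale (exact permutation p = 0.4). With a sample left out in turn the pan difference ran from -0.56 to -0.40 and that of C1 from -0.44 to -0.31. With a sample left out the exact permutation p was 0.1 to 0.133, so neither the ratio nor either gene by itself passed a threshold.

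**Figure D3:**
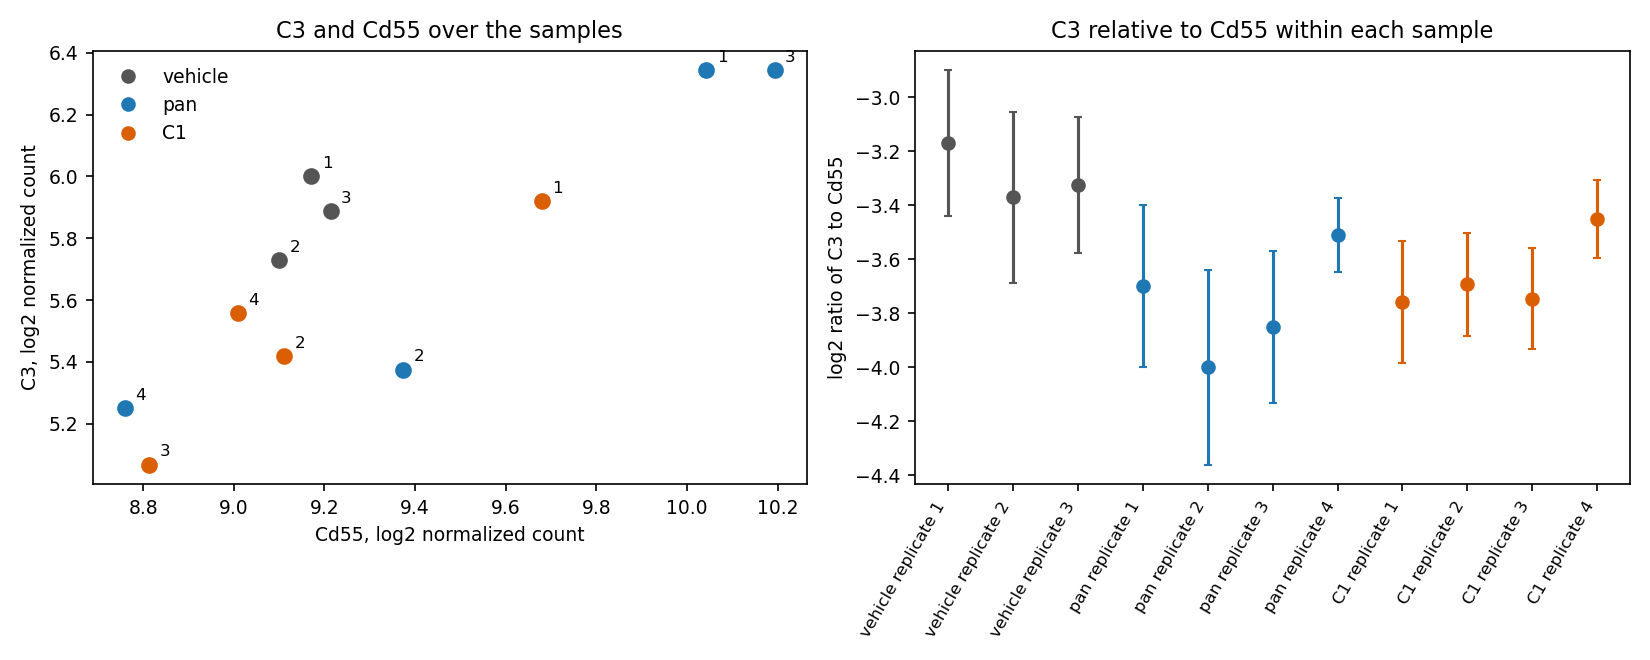
Left, log2 normalized count of C3 against that of Cd55 in the 11 samples, numbered by replicate within each group. Right, log2 ratio of C3 to Cd55 per sample with bars of 1 counting standard error: the 3 vehicle samples (9.66% to 11.1%) lie above all 8 treated samples (6.25% to 9.14%), and many bars overlap.

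The ratio of Cfb to Cd55 compares the alternative pathway with its regulator. It was 3.47%, 5.46% and 3.32% in the vehicle samples, 0.615%, 2.21%, 0.743% and 3.63% in the pan samples, and 1.51%, 4.18%, 5.28% and 6.80% in the C1 samples. Pan replicates 1 to 3 were below every vehicle sample, while pan replicate 4 was within the vehicle range. The log2 difference was -1.53 for pan (exact permutation p = 0.171, adjusted 0.257) and -0.037 for C1 (exact permutation p = 1). C1 against pan differed by 1.49 (exact permutation p = 0.143, adjusted 0.257). Without pan replicate 4 the pan difference was -1.99 (exact permutation p = 0.1, the smallest that 3 against 3 samples allow). With a floor of 20 normalized counts the differences were -0.63 for pan and 0.76 for C1 against pan, and with the reference mean subtracted they were -2.22 and 2.22. The values of pan replicates 1 and 3 rest on 2 and 3 probe counts of Cfb.

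The other complement genes of the panel were the 2 measured C1q chains, C1s, the C3a receptor C3ar1, and the genes of the membrane attack route C6, C7, C8a, C8b, C9 and Hc. None of these 10 passed the adjusted threshold in limma in any comparison. With pan all 10 had a log2 fold change below 0 (69.8% of the panel), from -1.95 to -0.37 with a median of -0.74, and 3 had an unadjusted p under 0.05 (10.1% of the panel in this direction). With the agonist C1 the median was -0.014 against vehicle, and 1 of 10 had an unadjusted p under 0.05 (10.5% of the panel). C1 over pan was above 0 for all 10, as it was for 181 of all 248 genes, with a median of 0.77, and 5 had an unadjusted p under 0.05 (13.7% of the panel in this direction). In pan against vehicle the medians of these 10 genes, of the 10 first described (-0.72) and of the reference genes (-0.36) were all below that of the panel (-0.20).

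C1s, the partner protease of C1r, had means of 88.5 ± 15.1 (SD, n = 3) normalized counts with vehicle, 71.2 ± 22.5 (n = 4) with pan and 119 ± 29.9 (n = 4) with C1. The lowest C1 sample (88.2) was above the highest pan sample (84.4), and the log2 fold change between them was 0.78 (SE 0.32, adjusted p = 0.278 in limma). C1qa, a chain of the recognition protein C1q, had means of 58.4 ± 17.9 with vehicle, 39.6 ± 8.26 with pan and 67.1 ± 11.2 with C1. C1 over pan was a log2 fold change of 0.77 for C1qa (SE 0.22, adjusted p = 0.256), and again the groups did not overlap. The C1 samples lay wholly above the pan samples for 4 of the 10 other complement genes, against 7.66% of the panel.

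Levels of other cell types' markers are given beside these genes. For macrophages and other myeloid cells, the 7 of 8 listed markers found on the panel, which include both C1q chains and so overlap the complement genes, summed to 186 to 293 normalized counts with vehicle, 144 to 209 with pan and 243 to 330 with C1. None of the 7 passed the adjusted threshold in limma in any comparison. The markers had a median difference on the log2 scale of -0.46 for pan against vehicle, 0.38 for C1 against vehicle and 0.77 for C1 against pan. In C1 against vehicle all 7 were above 0, where the 10 complement genes first described had a median of -0.25. None of the markers was at or under 3 probe counts in every sample of the pan or C1 groups, while 1 was in the vehicle group. Neutrophil markers (2 genes) summed to 10.0 to 27.7, 5.80 to 9.76 and 6.88 to 17.3, and T cell markers (2 genes) to 9.22 to 22.0, 9.74 to 14.5 and 13.3 to 20.7, in the same order of groups. Their part in the complement values was not tested.

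**Figure D4:**
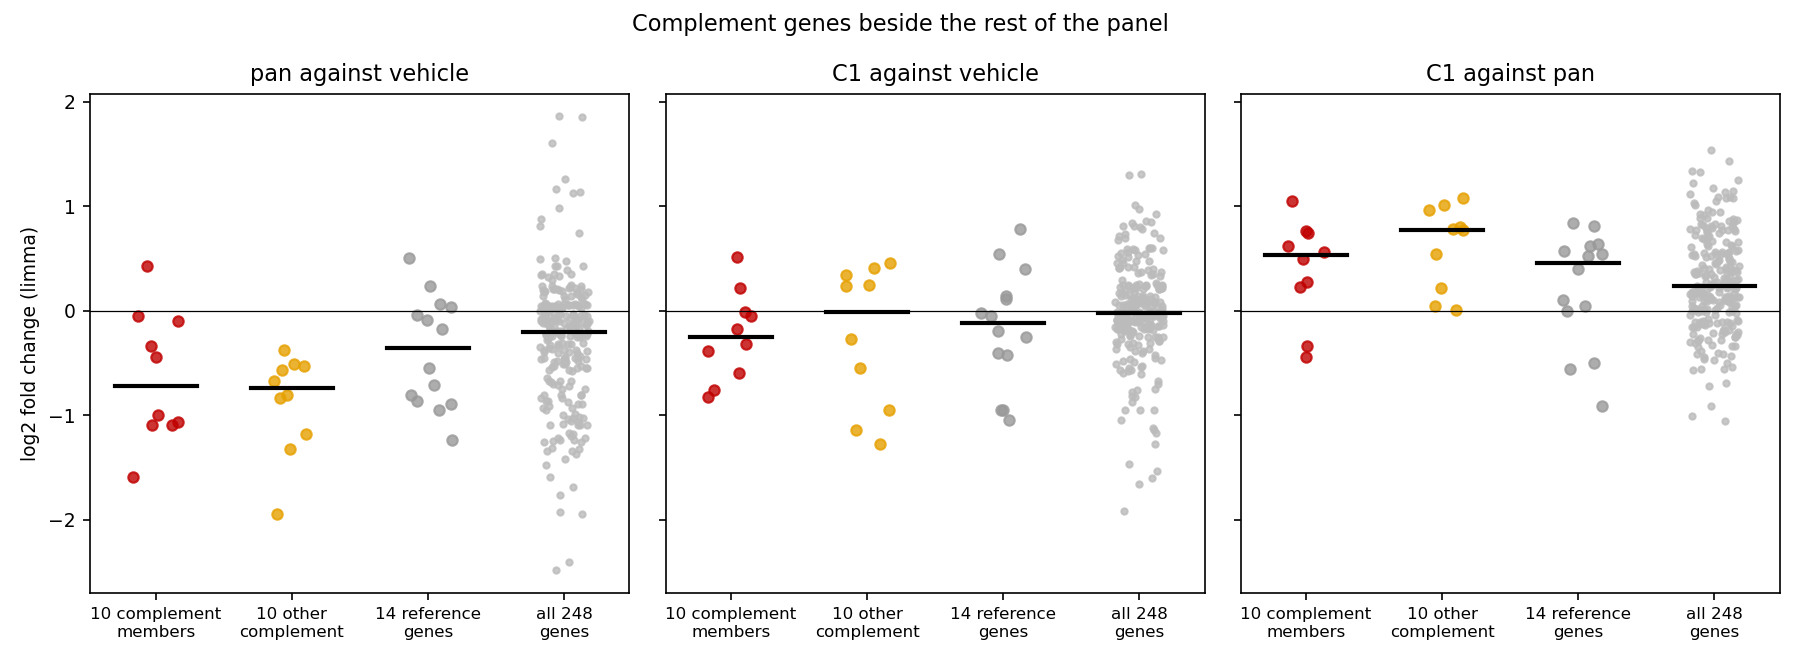
Log2 fold changes (limma) in the 3 comparisons for the 10 complement genes described here, the 10 other complement genes, the 14 reference genes and all 248 genes, with a bar at each median. In pan against vehicle the medians were -0.72, -0.74, -0.36 and -0.20, and in C1 against pan they were 0.53, 0.77, 0.46 and 0.23.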

How the data were processed

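Gene expression was measured with the NanoString nCounter mouse Inflammation panel in 11 corneal samples. Per the study's methods, the authors divided the counts of each lane by the geometric mean of housekeeping genes in ROSALIND and left out samples that failed quality control. Both deposited tables, 1 for each treatment beside vehicle, hold log2 normalized counts of 248 genes. The 3 vehicle columns were identical in both tables. The authors' columns of log2 fold changes, p-values and adjusted p-values, and of a mean count, were deposited beside them and were not used. The labels do not say whether the samples came from separate animals or pools, so p-values measure the spread between these samples.

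All 2728 values were within 0.01 of whole multiples of a step per sample, which gave the probe counts. Each comparison was fitted with limma 3.58.1 (R 4.3.3; lmFit, eBayes) on the deposited log2 values, with only its own groups, no covariate, no filter and no pseudocount, and p-values were adjusted by Benjamini-Hochberg over 248 genes, with a threshold of 0.05. Intervals are at 95%. Counting intervals and the floor of 3 counts cover counting error only. Counting ratios summed the probe counts of a group over its summed scaling and took the exact Clopper-Pearson interval. Exact permutation tests were two-sided and enumerated all splits (scipy 1.17.1, numpy 2.4.6, pandas 2.3.3, Python 3.11.15), and correlations used 100000 permutations. The limma step was first tested on simulated data. Plots used matplotlib 3.10.9.

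The genes and lists were chosen with earlier results of these data known. All 10 complement genes are named, and other complement genes only with an unadjusted p under 0.05 in a comparison and at least 10 counts in every sample. Cdc42, Rela and Gnb1 were named for their rank by r with Cd55, and the genes of marker and reference lists for their place in them. C3ar1 and C9, and the single values of Ifng and Il1a, were given outside this rule, after they were seen. Sequences came from the RefSeq promoter table of GRCm38.p6. No gene coordinates are given, since the panel names no build. Alternatives were median centring, a filter on a mean log2 value of 5, a pseudocount of 10, a floor of 20, subtraction of the mean of 14 reference genes, covariates (log2 total count, age label), the replicate number as a block, 3 groups in one fit, other prior variances, and each sample left out. Values under 1 after the subtraction were set to 1. Fits with a covariate used all 3 groups. Voom weights, the comparison within an age label and the alternatives of the correlation other than median centring were chosen after seeing the data.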

Additional observations from a re-analysis of the deposited data

Results flagged for a closer look

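In 2 of 24 groups of 4 samples, a gene with 1 sample apart from the rest was found, where 1.2 would be expected, since chance alone does this in about 1 of 20 groups. C2 in pan replicate 3 had a log2 value of 3.86 from 5 probe counts, while the other pan samples were between 4.51 and 4.64. Masp1 in C1 replicate 1 had a log2 value of 3.92 from 11 probe counts, while the other C1 samples were between 4.66 and 4.74.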

How the results depend on the processing

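The log2 fold changes of the complement genes were compared under alternatives without a sample left out. Of these, 322 kept their side of the threshold without reversing, 20 reversed and 7, all of Mbl2, lost the call. The 322 include values that became 0 and so kept no direction. With the floor these were Mbl2 in C1 against vehicle, and Cfd, Mbl2 and Masp2 in C1 against pan. With background subtraction they were Cfd and Mbl2 in C1 against pan. The count of complement genes called in pan against vehicle was 1. It was 0 with median centring, a pseudocount of 10, a mean-dependent prior and voom weights. It was also 0 with the filter on mean values, a floor of 20 and background subtraction, which could not keep the call of Mbl2. The filter did not test Mbl2, and the floor set all its values to 20. The subtraction set all its values in this comparison but that of vehicle replicate 3 to 1. Genes called over the panel in this comparison numbered 5, and 1 with the filter, 2 with the floor, 3 with background subtraction, 8 with the total count and 9 with the age label as covariate. For C1 against vehicle they numbered 0, and 4 with the filter, 1 with background subtraction and 2 with a mean-dependent prior. For C1 against pan they numbered 1, and 2 with the floor. They numbered 0 with median centring, pseudocount, either covariate, 3 groups in one fit, robust or mean-dependent prior, or voom weights.

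Reversed log2 fold changes with pan against vehicle were C3 at 0.023 with median centring, 0.0024 with background subtraction, 0.033 with the total count and 0.15 with the age label, and C2 at 0.12 with background subtraction. With C1 against vehicle they were Cfb at 0.12 with the floor and 0.068 with voom weights, C3 at 0.057 and Cd55 at 0.59 with the total count, and C3 at 0.39 and Cd55 at 1.10 with the age label. With C1 against pan they were Masp2 at -0.52 with background subtraction, C3 at 0.025 and Cd55 at 0.053 with the total count, and C3 at 0.24 and Cd55 at 0.39 with the age label and within it. The ratio of Cfb to Cd55 in C1 against vehicle was 0.13 with the floor and 0.0067 with background subtraction. The correlation of C3 and Cd55 was 0.65 with the total removed. Only the pan group held both age labels, so every value with the age label depends on pan replicate 4, its 1 sample at 22 to 24 months. The causes were not tested.

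Of 10 same-numbered pairs of samples 4 had a correlation of deviations over 0.1 (-0.054 to 0.57, over 131 genes). The highest were 0.57 and 0.51, between pan and C1 for replicates 4 and 1. No pairs of unlike number were set beside them, so whether the replicate numbers pair the samples was not tested. With the replicate block 0 complement genes were called, Mbl2 was at -1.63 (adjusted p = 0.102 in limma), C3 with pan was at 0.15, Cd55 with C1 against vehicle at 0.040, and genes called numbered 5, 0 and 1.

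With each sample left out in turn, complement genes called numbered 0 to 1 with pan, and 0 in the other comparisons. Genes called numbered 1 to 7 with pan, 0 with C1 and 0 to 1 between them. The ratio of C3 to Cd55 ran from -0.56 to -0.40, from -0.44 to -0.31, and from 0.025 to 0.19 in C1 against pan. That of Cfb to Cd55 ran from -1.99 to -1.14, from -0.31 to 0.42, and from 1.10 to 1.95. The correlation ran from 0.80 to 0.90, and its adjusted p was 0.114 without pan replicate 3 and 0.0504 without pan replicate 4. Fold changes that reversed in such fits ran from -0.27 to 0.13 for C2 and -0.22 to 0.15 for C3 with pan, from -0.27 to 0.23 for Cfb, -1.11 to 0.080 for Cfd, -0.18 to 0.10 for Cd55 and -0.13 to 0.42 for Masp1 with C1 against vehicle, and from -0.22 to 0.56 for Masp2 in C1 against pan. The edgeR test listed for recovered counts was not run. Depth limits Mbl2, Cfd, Masp2 and, in pan replicates 1 to 3, Cfb, C4a, Masp1 and C2, each at no more than 10 probe counts. C1ra held no more than 8 probe counts in pan replicates 1 and 3.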

Other observations

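Cytokines known to raise C3 and Cfb were counted beside them. Of Il1a, Il1b, Il6, Tnf and Ifng, 3 had a log2 fold change above 0 and 2 below 0 with pan against vehicle, with a median of 0.23, and 4 above 0 and 1 below 0 with C1 against vehicle, with a median of 0.57. In pan against vehicle 1 of 5 passed the adjusted threshold in limma, in the lower direction, beside 2.02% of the panel. It was Ifng, which held at most 3 probe counts in 3 of 4 pan samples, so its difference is limited by depth. Il1a went the other way with pan, at 1.26 (adjusted p = 0.239 in limma). In C1 against vehicle 0 of 5 passed, beside 0% of the panel. In the same samples C3 was at -0.045 and -0.38 and Cfb at -1.09 and -0.045 on the log2 scale.

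C3ar1, named after its values were seen, had means of 50.3 ± 14.1 (SD, n = 3) normalized counts with vehicle, 22.1 ± 5.14 (n = 4) with pan and 26.5 ± 10.4 (n = 4) with C1. Its log2 fold change was -1.18 with pan (adjusted p = 0.0955 in limma) and -0.95 with C1 (adjusted p = 0.418). Every pan sample was below every vehicle sample for C3ar1. The same was found for 2 of the 10 other complement genes in all, C3ar1 and C9, and for 8.47% of the panel. C9, likewise named afterwards, was at or under 3 probe counts in 3 of 4 pan samples and had means of 17.7 ± 8.69 with vehicle, 4.77 ± 2.45 with pan and 8.81 ± 5.71 with C1.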
